A study of Mus musculus with 2 samples.

Results

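Genes for enzymes that put methyl groups on transfer RNA and ribosomal RNA were followed in X63/0 mouse plasmacytoma cells after a block of S-adenosylmethionine (SAM) synthesis. The set was named gene by gene, 35 genes in all, and holds SAM-dependent tRNA and rRNA methyltransferases with the partner proteins that some of them need. Of these, 34 had a row among the 43346 features of the deposited table, and Tarbp1 was not analysed here. RPKM, the reads in exons per kilobase of exon and scaled by the reads of the library, reached 1 in at least one library for 31 genes, and these are called measured. The other 3, Nsun3, Trdmt1 and Tyw3, stayed below it in both libraries. The rule reads levels, and a gene near the minimum can pass it through 1 library alone.

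One library came from cells given cycloleucine at 30 mM for 3 h, and the other from untreated cells. X63/0 (X63-Ag8.653) is an established myeloma line of B cell origin, so both libraries stand for 1 line. Cycloleucine is a cyclic analogue of amino acids that blocks the enzyme making SAM from methionine. The sources used here do not say whether the untreated cells were given plain medium in place of the cycloleucine stock. The design text describes a triplicate experiment and 1 library per group was analysed here. Whether a library holds RNA of 1 culture or of several is not known. The differences below rest on single libraries and carry no p-value. Total RNA was depleted of rRNA and read on an Ion Proton. The cycloleucine library held 31951946 reads in genes, 49.4% of them in exons, and the untreated library 27127865, 48.4% of them in exons. All 9 plasma cell marker genes with a row reached an RPKM of 1, with summed RPKM of 881 in the cycloleucine and 871 in the untreated library, and 2 of 6 B cell markers did (Cd79b and Ms4a1). Of other cell types, 1 of 4 myeloid markers (Cd68), 0 of 6 T and NK cell and 0 of 4 fibroblast markers did. Mat2a, which encodes the main SAM synthetase and checks the treatment, had 182 RPKM in the cycloleucine library and 71.2 RPKM in the untreated library. That is a 2.56-fold difference with a 95% counting interval of 2.48 to 2.64.

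Cells methylate tRNA at many positions. Methyl groups in the anticodon loop tune decoding and reading frame, those in the body of the molecule help it fold and protect it from cleavage, and those on rRNA are laid down while the ribosome is assembled in the nucleolus or in mitochondria. All of these reactions take the methyl group from SAM, and plasma cells, the cell type that gives rise to plasmacytomas, carry a large translation apparatus. The measurements concern the messages of the enzymes, not the methyl groups themselves. In bulk RNA, fewer cells that express a gene and less of its RNA per cell cannot be told apart.

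Sequences were examined first at sites of the kind that METTL16, an RNA adenine methyltransferase, recognises in hairpins of the Mat2a message. The nonamers TACAGAGAA and TACAGAAAA were searched in the sense strand of each gene's longest-coding transcript, in GENCODE M21 annotation of GRCm38. They were found in 4 of the 33 methyltransferase genes with a row and a coding transcript (12.1%) and in 1564 of 21922 protein-coding genes (7.13%). The sites are shown, with the nonamer in capitals and 9 bases on either side, because these are the genes of the set that carry the letters read in Mat2a. They lie in the 3' untranslated regions of Alkbh8 (chr9:3389385-3389393, plus strand), Trmt12 (chr15:58875798-58875806, plus strand) and Trmt44 (chr5:35557498-35557506, minus strand) and in the 5' untranslated region of Mettl5 (chr2:69885362-69885370, minus strand). One of the 6 Mat2a sites (chr6:72434245-72434253, minus strand) is given for comparison.
Alkbh8: aaaatggccTACAGAGAAgatggatta
Trmt12: tgtgataggTACAGAAAAtaaaggtcc
Trmt44: tcagagtccTACAGAGAAcagcttcca
Mettl5: actttaaaaTACAGAGAAaacgatgaa
Mat2a: ggcgtaggtTACAGAGAAgccttcaag
A match is a description of the letters and not a site of methylation. The 4 genes with a match differed between the libraries by log2 fold changes of -0.16 to 0.25, all within the middle 95% of all annotated features given below. For Alkbh8 the site lies past the end of the gene region counted here (chr9:3387050).

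Promoters were read for the genes with the largest differences, Lcmt2 and Nsun6. RefSeq promoter windows of GRCm38.p6, 250 bases before to 50 after the start, were at hand for 29 of the 34 genes with a row. The longest stretch of letters that the Lcmt2 and Nsun6 windows share is 11 bases long and is capitalised in both, a feature noted after the sequences were seen. The Lcmt2 window is chr2:121140649-121140948 and the Nsun6 window chr2:15049263-15049562, both on the minus strand and written 5' to 3'. Nsun6 has 2 windows, and the 1 shown lies inside the gene region, which runs to 15055069. The last base of the stretch lies 28 bases after the start in Lcmt2 and 8 bases before it in Nsun6.
Lcmt2: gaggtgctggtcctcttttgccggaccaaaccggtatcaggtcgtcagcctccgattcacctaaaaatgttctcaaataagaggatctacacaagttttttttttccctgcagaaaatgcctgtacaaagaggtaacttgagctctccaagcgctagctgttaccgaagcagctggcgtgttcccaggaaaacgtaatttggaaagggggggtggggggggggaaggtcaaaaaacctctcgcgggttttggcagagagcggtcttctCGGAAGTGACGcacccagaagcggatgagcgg
Nsun6: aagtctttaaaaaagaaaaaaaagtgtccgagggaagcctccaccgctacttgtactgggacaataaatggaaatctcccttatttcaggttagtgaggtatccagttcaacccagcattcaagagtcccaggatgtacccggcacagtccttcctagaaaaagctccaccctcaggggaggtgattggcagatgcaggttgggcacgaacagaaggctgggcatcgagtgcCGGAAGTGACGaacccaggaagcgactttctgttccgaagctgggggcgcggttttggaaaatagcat
Among 406 pairs of these genes, 45 (11.1%) share a stretch of at least 11 bases, with a median of 9 and a longest of 15. The stretch CGGAAGTGACG, on either strand, is in the windows of 0.522% of 27025 genes and of 1.66% of the 6854 genes kept for the comparisons below. Its first part holds GGAAGTG, the core letters bound by ETS family factors, which 11 of 29 methyltransferase genes carry on either strand (37.9%), against 12.5% of all genes and 18.9% of the kept ones. Lcmt2 and Nsun6, in which the stretch was found, are among the 11, and without them it is 9 of 27 (33.3%). On either strand, CACGTG, the E-box bound by MYC and its relatives, is in 5 of the 29 (17.2%), against 8.09% of all genes and 12.7% of the kept ones. TGACGTCA, the cyclic AMP response element, is in 2 of the 29 (6.90%), against 2.03% of all genes and 4.13% of the kept ones. TGATGCAA, an amino acid response element, is in 0 of the 29, against 1.03% of all genes and 0.715% of the kept ones.

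Levels of the set ran from barely measured to well expressed. Emg1 had the highest level, at 75.3 RPKM in the cycloleucine library and 79.8 RPKM in the untreated library, followed by Nsun2, Trmt112 and Ftsj3. These 4 genes made up 190.4 of 353 summed RPKM in the cycloleucine library and 200.1 of 368 in the untreated library. They are 2 ribosome assembly factors, a cytosine methyltransferase and the shared activator. An RPKM of 5 was reached by 18 genes. At the lower end, Nsun4 at 1.15, Nsun6 at 1.13 and Trmt61b at 1.11 RPKM in their higher library lay just inside the minimum, and Nsun3 at 0.80 and Trdmt1 at 0.78 just outside. Nsun6 was measured only through the cycloleucine library and Trmt61b only through the untreated one, so their place in the set depends on the difference itself.

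**Figure D1:**
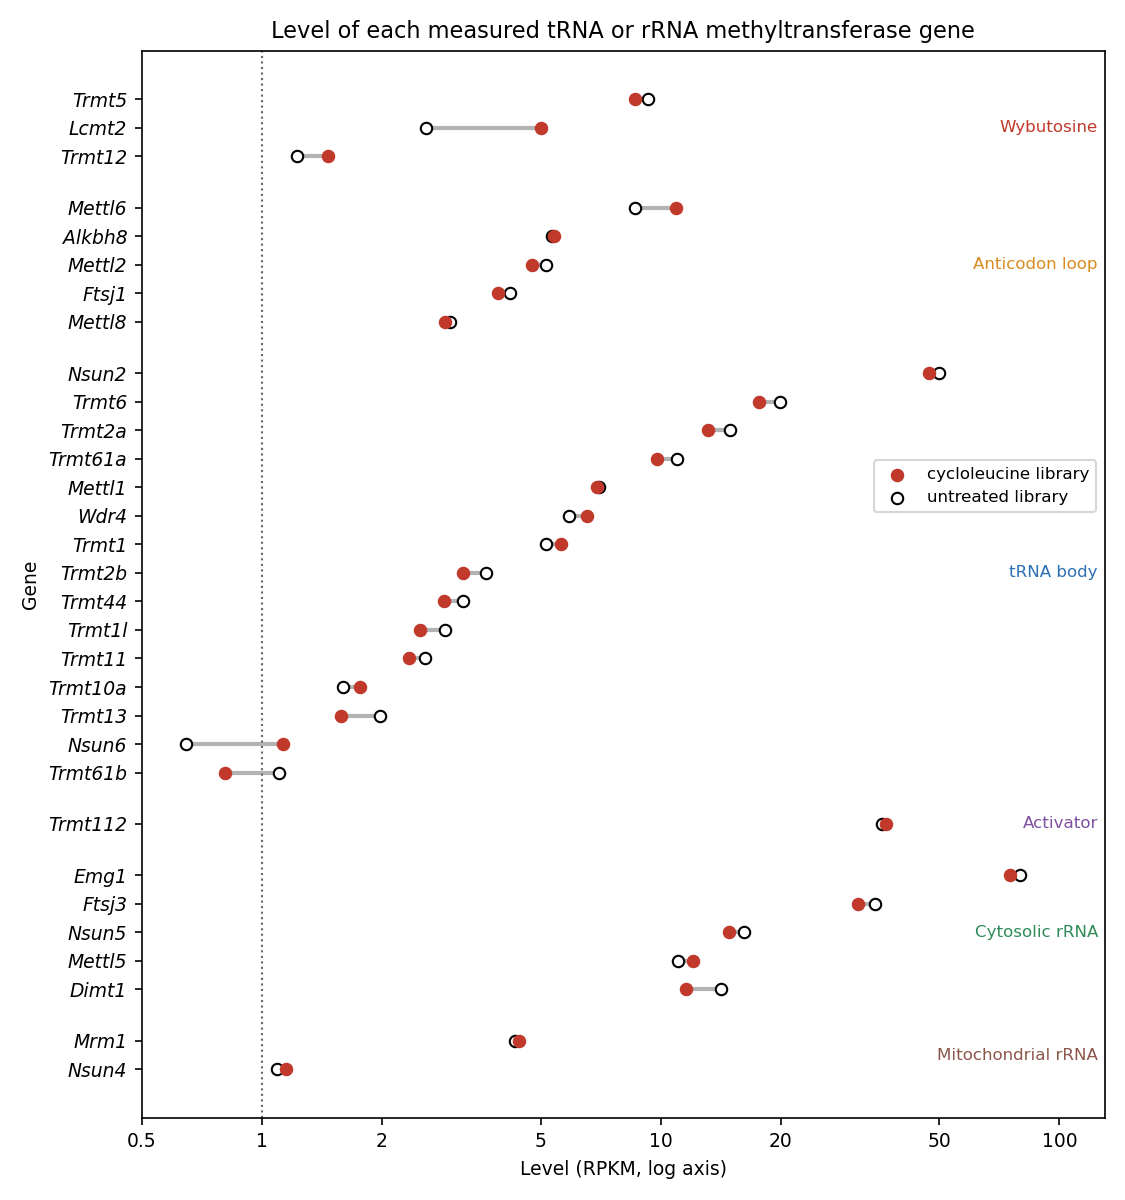
RPKM on a log axis of the 31 measured genes, grouped by role, with filled points for the cycloleucine library and open points for the untreated library (1 library each) and a dotted line at the minimum of 1. The widest gaps are those of Lcmt2 (5.03 RPKM cycloleucine, 2.57 RPKM untreated) and Nsun6 (1.13 RPKM cycloleucine, 0.65 RPKM untreated).

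Most of the set differed little between the libraries. The log2 fold change, taken as the log2 of cycloleucine RPKM plus 0.1 over untreated RPKM plus 0.1, had a median of -0.08 over the 31 measured genes, with 12 above and 19 below 0. Over the 9081 annotated features kept by the same RPKM minimum and at least 50 reads, the median was 0.0022 and 50.6% were above 0. Scaled by all exon reads, which lowers every value by 0.03, the set had 10 genes above 0. Differences stayed under 1.25-fold in 27 of 31 genes (87.1%) and in 84.5% of all annotated features.

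By the size rule, 2 of 31 genes (6.45%) were at least 1.5-fold higher in the cycloleucine library, Lcmt2 and Nsun6, against a background of 2.16% of all annotated features. No gene of the set was at least 1.5-fold lower, against a background of 1.87%, and none was at least 2-fold higher, against 0.374%. The 95% counting interval of the plain ratio of RPKM lay above 0 on the log2 scale for 4 genes (12.9%), Lcmt2, Nsun6, Mettl6 and Wdr4, against 22.5% of all annotated features. It lay below 0 for 11 genes (35.5%), Trmt13, Dimt1, Trmt1l, Trmt2b, Trmt2a, Trmt6, Trmt61a, Ftsj3, Nsun5, Emg1 and Nsun2, against 21.1%. These intervals cover counting error only and say nothing of variation between cultures. Whether an interval excludes 0 also depends on the number of reads. The background takes features from 50 reads up, so these shares are not matched for depth. Some upper bounds lay close to 0, such as those of Trmt2b (-0.005) and Emg1 (-0.01). Counts of intervals are not given under the alternative scalings, which shift every value by -0.03 to 0.01. With the 29 genes that reached the minimum in both libraries, the median stayed at -0.08 and 1 gene, Lcmt2, was past 1.5-fold. The share of all annotated features under this stricter filter is not given here, so that count has no background.

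**Figure D2:**
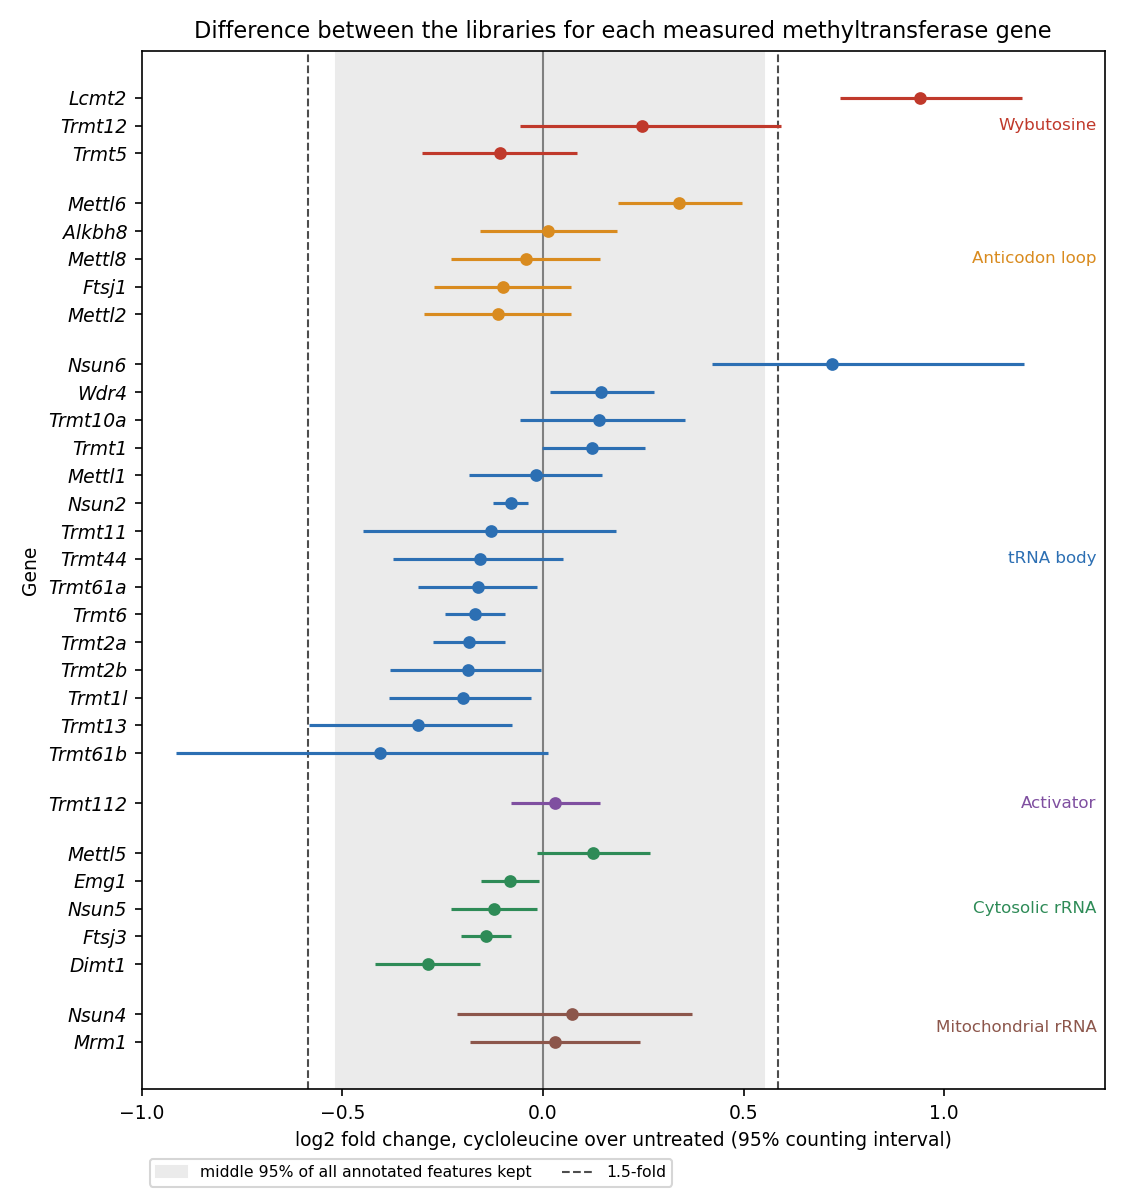
The log2 fold change of each measured gene, cycloleucine over untreated, with its 95% counting interval, by role. The gray band is the middle 95% of all annotated features (-0.52 to 0.55) and the dashed lines mark 1.5-fold. Lcmt2 at 0.94 and Nsun6 at 0.72 lie outside both.

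The wybutosine enzymes build a large tricyclic guanosine beside the anticodon of phenylalanine tRNA, a base that holds the reading frame. Lcmt2, also called TYW4, completes the side chain of this base with a methyl ester and a methoxycarbonyl group, and it showed the largest difference of the set. It had 5.03 RPKM (538 exon reads) in the cycloleucine library and 2.57 RPKM (234 exon reads) in the untreated library. The log2 fold change was 0.94 (0.74 to 1.19), or a plain ratio of 1.95 (1.67 to 2.29). Among the 6373 annotated features with at least its 772 exon reads, 3 had a larger log2 fold change, and over all 9081 features 42 did.

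Other readouts of Lcmt2 were few. Its longest coding transcript has 1 exon. It had 0 junction reads, counted throughout as uniquely placed reads across 2 exons, in either library, and intron reads were 13 in the cycloleucine library and 4 in the untreated library. Uniquely placed reads made up 92.1% of its exon reads and gave a log2 fold change of 0.98 (uniquely placed and junction reads are scaled by uniquely placed gene reads, which raises a value by 0.03 against the scaling of RPKM). The gene lies on chromosome 2 from 121128307 to 121140653 (minus strand), where 226 bases of its exons overlap those of Adal on the opposite strand. Adal, an adenosine deaminase relative, had 1.94 RPKM in the cycloleucine library and 1.89 RPKM in the untreated library. Use of strand in the counting is not given, so reads from the shared bases cannot be assigned, and their part in the difference was not tested.

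Trmt12 (TYW2), which adds the aminocarboxypropyl side chain from SAM, was low, at 1.47 RPKM in the cycloleucine library and 1.22 RPKM in the untreated library, a log2 fold change of 0.25 (-0.06 to 0.59). Trmt5 makes the first methylguanosine of the pathway and had 8.64 RPKM in the cycloleucine library and 9.32 RPKM in the untreated library. Its log2 fold change was -0.11 (-0.30 to 0.09). Tyw3, a further methyltransferase of the chain, was below the minimum, at 0.28 RPKM in the cycloleucine library and 0.46 RPKM in the untreated library. Outside the set, Tyw1, which closes the ring without methyl transfer, had a log2 fold change of 0.11 (-0.003 to 0.24). Tyw5, a hydroxylase that acts on an intermediate of the pathway, had one of 0.29 (0.04 to 0.55). Uniquely placed reads, 63.7% of the exon reads of Tyw5, gave 0.51. Its junction reads, 66 in the cycloleucine library and 63 in the untreated library, gave -0.13 (-0.66 to 0.39), an interval that includes 0. Of the 5 measured genes of the pathway, Tyw1 and Tyw5 included, 4 were above 0 and 1, Trmt5, below. The interval lay above 0 for 2 of them and below 0 for 0, against 22.5% and 21.1% of all annotated features.

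Enzymes of the anticodon loop gave 5 measured genes with a median of -0.04, 2 above 0, and 1 whose interval excluded 0. That gene was Mettl6, which methylates a cytidine in the anticodon loop of serine tRNA. It had 10.9 RPKM (849 exon reads) in the cycloleucine library and 8.61 RPKM (569 exon reads) in the untreated library, a log2 fold change of 0.34 (0.19 to 0.50). Its exons share 139 bases with Eaf1 on the opposite strand, which differed by -0.18. Junction reads of Mettl6, 89 in the cycloleucine library and 69 in the untreated library, gave 0.17 (-0.30 to 0.64). That interval includes both 0 and the exon value. Relatives with the same chemistry had intervals that include 0. Mettl2, which acts on threonine and arginine tRNA, had 4.76 RPKM in the cycloleucine library and 5.15 RPKM in the untreated library, a log2 fold change of -0.11. Mettl8, the mitochondrial member, had 2.88 RPKM in the cycloleucine library and 2.97 RPKM in the untreated library (-0.04). Of these 3 genes, only Mettl6 had an interval that excluded 0. Alkbh8, which completes the methylated wobble uridine, had 5.40 RPKM in the cycloleucine library and 5.35 RPKM in the untreated library (0.01, turning below 0 when scaled by all exon reads). Ftsj1, which methylates ribose in the anticodon loop and is mutated in X-linked intellectual disability, had 3.91 RPKM in the cycloleucine library and 4.19 RPKM in the untreated library (-0.10). Nsun3, which acts on the wobble cytidine of mitochondrial methionine tRNA, was below the minimum at 0.80 RPKM in the cycloleucine library and 0.61 RPKM in the untreated library.

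Enzymes of the tRNA body formed the largest group, with 15 measured genes, a median of -0.16, and 4 above and 11 below 0. The interval lay below 0 for 7 of them and above 0 for 2, against 21.1% and 22.5% of all annotated features. Nsun6, which methylates a cytidine at the acceptor end of cysteine and threonine tRNA, stood apart from the rest. It had 1.13 RPKM (173 exon reads) in the cycloleucine library and 0.65 RPKM (84 exon reads) in the untreated library, a log2 fold change of 0.72 (0.42 to 1.20). Junction reads were 36 in the cycloleucine library and 18 in the untreated library, and intron reads 93 in the cycloleucine library and 42 in the untreated library. Spliced and intronic reads of this gene were higher in the same library as its exon reads, and the junction interval (-0.06 to 1.70) includes 0. With 1 RPKM added in place of 0.1, its log2 fold change was 0.37, under the 1.5-fold rule. Of the 8414 annotated features with at least its 257 exon reads, 49 had a larger log2 fold change. The gene lies on chromosome 2 from 14995131 to 15055069 (minus strand) with no exon overlap, and 99.2% of its exon reads were uniquely placed.

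The measured genes of the Nsun family of cytosine methyltransferases, 4 in all, had log2 fold changes of -0.12 to 0.72, 2 above and 2 below 0. Nsun2, which methylates many tRNAs in the variable loop and protects them from cleavage, was the second most abundant gene of the set, with 47.1 RPKM (8636 exon reads) in the cycloleucine library and 49.8 RPKM (7756 exon reads) in the untreated library. Its log2 fold change was -0.08 (-0.13 to -0.04), and -0.02 with uniquely placed reads, or -0.05 where these are scaled by total gene reads. Its junction reads, 3218 in the cycloleucine library and 2671 in the untreated library, gave 0.07 (-0.01 to 0.14). Trdmt1 (DNMT2), a tRNA cytosine methyltransferase built like a DNA methyltransferase, was below the minimum, at 0.78 RPKM in the cycloleucine library and 0.56 RPKM in the untreated library.

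Trmt6 and Trmt61a encode the noncatalytic and catalytic subunits of the enzyme that methylates an adenosine in the T loop. Trmt6 had 17.7 RPKM in the cycloleucine library and 19.9 RPKM in the untreated library, a log2 fold change of -0.17 (-0.24 to -0.10). Trmt61a had 9.81 RPKM in the cycloleucine library and 10.98 RPKM in the untreated library, a log2 fold change of -0.16 (-0.31 to -0.01). The RPKM of both subunits was thus lower in the cycloleucine library, while the intervals of their junction reads include 0. That of Trmt61a also includes its exon value. Trmt6 had 713 junction reads in the cycloleucine library and 591 in the untreated library (0.07, -0.09 to 0.23), and Trmt61a 37 in the cycloleucine library and 27 in the untreated library (0.25, -0.50 to 1.02). The other 2-subunit enzyme of the set, which makes 7-methylguanosine in the variable loop, consists of the catalytic Mettl1 and its partner Wdr4. Mettl1 had 6.93 RPKM in the cycloleucine library and 7.03 RPKM in the untreated library (-0.02, -0.19 to 0.15). Wdr4 had 6.53 RPKM in the cycloleucine library and 5.90 RPKM in the untreated library (0.14, 0.02 to 0.28), so the intervals of these partners overlap. Junction reads of Wdr4, 246 in the cycloleucine library and 210 in the untreated library, gave 0.03 (-0.25 to 0.30). That interval includes both 0 and the exon value. Exons of Wdr4 share 585 bases with AC166172.3 on the opposite strand, whose level is not given here.

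Trmt2a, which makes the ribothymidine of the T loop, had 13.2 RPKM in the cycloleucine library and 14.97 RPKM in the untreated library, a log2 fold change of -0.18 (-0.27 to -0.10). Its exons share 825 bases with Dgcr8 on the opposite strand, which had a log2 fold change of -0.51, and the part of those reads was not tested. Junction reads of Trmt2a, 476 in the cycloleucine library and 508 in the untreated library, gave -0.30 (-0.48 to -0.11). Its mitochondrial relative Trmt2b had 3.20 RPKM in the cycloleucine library and 3.66 RPKM in the untreated library (-0.19, -0.38 to -0.005).

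Guanosine methyltransferases of the body gave mixed small values. Trmt1, which makes dimethylguanosine at the junction of the D and anticodon arms, had 5.62 RPKM in the cycloleucine library and 5.16 RPKM in the untreated library (0.12, -0.003 to 0.25). Trmt1l, its relative, had 2.49 RPKM in the cycloleucine library and 2.88 RPKM in the untreated library (-0.20, -0.38 to -0.03). Trmt10a, which methylates a guanosine between the acceptor and D stems, had 1.77 RPKM in the cycloleucine library and 1.59 RPKM in the untreated library (0.14, -0.06 to 0.35). Trmt11, which works with Trmt112, had 2.34 RPKM in the cycloleucine library and 2.56 RPKM in the untreated library (-0.13, -0.45 to 0.18). Only for Trmt1l did the interval exclude 0 among these 4.

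Trmt13, a ribose methyltransferase of the acceptor stem, had 1.58 RPKM in the cycloleucine library and 1.98 RPKM in the untreated library, a log2 fold change of -0.31 (-0.58 to -0.08). With 60.4% of its exon reads uniquely placed, those reads alone gave -0.15, and its junction reads, 85 in the cycloleucine library and 62 in the untreated library, 0.25 (-0.24 to 0.75). Trmt44, named for a yeast ribose methyltransferase of serine tRNA, had 2.86 RPKM in the cycloleucine library and 3.20 RPKM in the untreated library (-0.16, -0.37 to 0.05), while its 93 junction reads in the cycloleucine library and 55 in the untreated library gave 0.56 (0.06 to 1.06). The log2 fold changes of exon and junction reads thus pointed in opposite directions for Trmt13 and for Trmt44. Trmt61b, a mitochondrial adenosine methyltransferase, was at the minimum, with 0.81 RPKM (75 exon reads) in the cycloleucine library and 1.11 RPKM (87 exon reads) in the untreated library (-0.41, -0.92 to 0.01). GENCODE M21 lists its gene model as antisense, without a coding sequence, and 402 bases of it overlap Spdya.

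Trmt112 is a small activator that stabilises several methyltransferases, among them those encoded by Trmt11, Alkbh8 and Mettl5. It had 36.7 RPKM in the cycloleucine library and 35.9 RPKM in the untreated library, a log2 fold change of 0.03 (-0.08 to 0.14). Uniquely placed reads were 32.7% of its exon reads and gave -0.03, and its exons share 409 bases with Prdx5 and 73 with Esrra. Its 3 partners in the set had log2 fold changes of -0.13, 0.01 and 0.12, each with an interval that included 0.

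Of 5 cytosolic rRNA enzymes, 4 had intervals below 0, against 21.1% of all annotated features, and the median was -0.12. Intervals narrow with reads, and these 4 genes had 943 to 4362 exon reads in a library. The background takes features with at least 50 reads over both libraries, so it is not matched for depth. The upper bound of Emg1 (-0.0111) lies within the shift of 1 alternative scaling (TMM, 0.0113). Emg1, which methylates a pseudouridine of the small-subunit rRNA, had a log2 fold change of -0.08 (-0.15 to -0.01) at the levels given above. Ftsj3, a nucleolar ribose methyltransferase needed for rRNA processing, had 31.3 RPKM in the cycloleucine library and 34.6 RPKM in the untreated library (-0.14, -0.20 to -0.08). Nsun5, which methylates a cytidine of the large-subunit rRNA, had 14.9 RPKM in the cycloleucine library and 16.2 RPKM in the untreated library (-0.12, -0.23 to -0.02). All of these differences were small beside the 1.5-fold rule. Junction reads gave 0.008 (-0.12 to 0.13) for Emg1, -0.02 (-0.22 to 0.18) for Nsun5 and -0.17 (-0.28 to -0.07) for Ftsj3.

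Dimt1, which dimethylates adenosines near the end of the small-subunit rRNA, had 11.6 RPKM in the cycloleucine library and 14.2 RPKM in the untreated library, a log2 fold change of -0.29 (-0.42 to -0.16). Uniquely placed reads, 47.7% of its exon reads, gave -0.26, and Kif2a, whose exons share 1229 bases with it on the opposite strand, had -0.27. Junction reads of Dimt1 gave -0.16 (-0.40 to 0.09), an interval that includes 0. Mettl5, which makes a methyladenosine of the small-subunit rRNA, was the one gene of this group above 0, with 12.1 RPKM in the cycloleucine library and 11.1 RPKM in the untreated library (0.12, -0.02 to 0.27). Its junction reads were 236 in the cycloleucine library and 152 in the untreated library, a log2 fold change of 0.43 (0.13 to 0.74). Exon bases of Mettl5 also overlap Ssb, an abundant gene at 61.9 RPKM in the cycloleucine library and 58.1 RPKM in the untreated library, by 169 bases.

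Both mitochondrial rRNA enzymes had intervals that include 0. Mrm1, a ribose methyltransferase of the large mitochondrial rRNA, had 4.41 RPKM in the cycloleucine library and 4.32 RPKM in the untreated library (0.03, -0.18 to 0.24, turning below 0 when scaled by all exon reads). Nsun4, which methylates the small mitochondrial rRNA and takes part in ribosome assembly, had 1.15 RPKM in the cycloleucine library and 1.09 RPKM in the untreated library (0.07, -0.21 to 0.37). With Trmt2b, Trmt61b and Mettl8 these make 5 measured mitochondrial enzymes, whose median was -0.04.

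**Figure D3:**
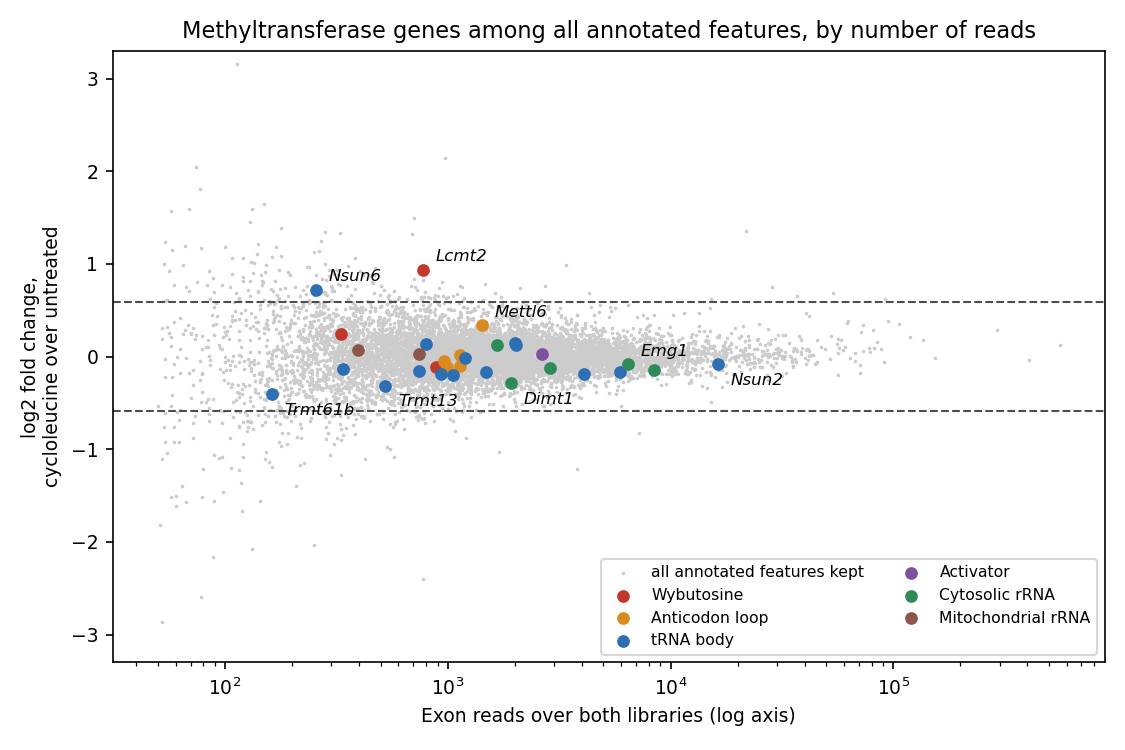
The log2 fold change, cycloleucine over untreated, against exon reads summed over both libraries (log axis), with the measured genes coloured by role over all 9081 annotated features in gray and dashed lines at 1.5-fold. Most coloured points lie inside the gray cloud, and Lcmt2 (772 reads) lies at its upper edge.

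Reads in introns come mostly from RNA that has not been spliced, so the ratio of intron to exon reads was read beside the level. The ratio and the level both contain the exon reads, so fewer exon reads alone raise the ratio. Over both libraries together, 20 of the genes had 100 or more intron reads and 200 or more exon reads. The log2 change of the ratio had a median of 0.05, with 10 above and 10 below 0, against a median of 0.02 over 6803 annotated features. The interval lay above 0 for 3 genes (15%), Dimt1, Trmt13 and Nsun2, against 15.3% of those features, and below 0 for 1 gene (5%), Emg1, against 13.2%. Dimt1 was highest, at 0.62 (0.29 to 0.94), with 222 intron reads in the cycloleucine library and 150 in the untreated library. Emg1 was lowest, at -0.67 (-1.09 to -0.26), with 80 intron reads in the cycloleucine library and 115 in the untreated library. Nsun6 had 0.10 (-0.54 to 0.74), an interval too wide to separate intron from exon reads.

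**Figure D4:**
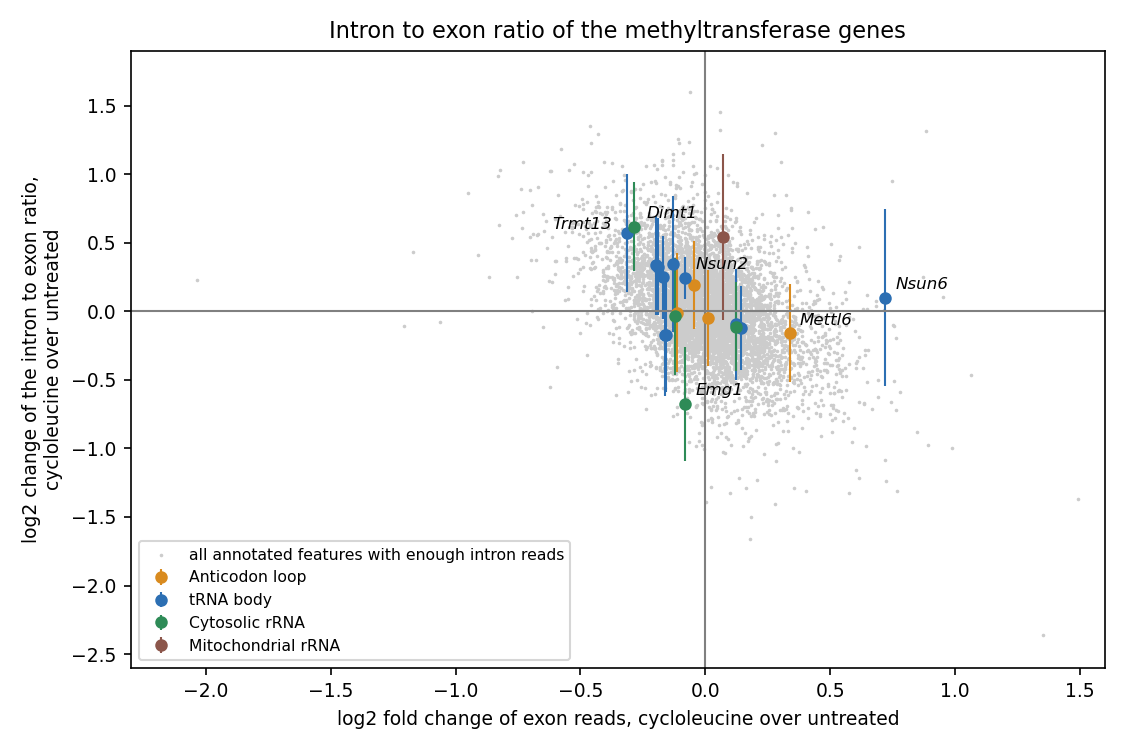
The log2 change of the intron to exon ratio against the log2 fold change of exon RPKM, both cycloleucine over untreated, for the 20 genes with enough intron reads (bars are 95% counting intervals) and 6803 annotated features in gray. Both axes contain the exon reads, and most of the coloured points lie within the gray cloud.

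Uniquely placed reads across exon junctions, which come from spliced RNA alone, reached 100 over both libraries for 22 genes. Their median log2 fold change was 0.04, against 0.02 over 6448 annotated features. Its sign was opposite to that of the exon reads in 7 of the 22 (31.8%), Emg1, Mettl1, Mettl2, Nsun2, Trmt13, Trmt44 and Trmt6, against 27.7% of those features. The interval lay above 0 for 2 genes, Mettl5 and Trmt44, against 16.9% of those features, and below 0 for 2 genes, Ftsj3 and Trmt2a, against 12.2%. For Ftsj3 the junction reads were 1404 in the cycloleucine library and 1377 in the untreated library, a log2 fold change of -0.17 (-0.28 to -0.07).

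In 16 of the 31 measured genes some exon bases are shared with another gene, and 27 had at least 87.7% of their exon reads uniquely placed. The other 4 were Trmt112, Dimt1, Trmt13 and Trmt61b. For Trmt61b the uniquely placed reads gave -0.75, beyond the 1.5-fold rule, at 49 such reads in the cycloleucine library and 75 in the untreated library.

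Further genes of tRNA and rRNA methylation, drawn from a separate list, are described for comparison. Of 21 with a row, 18 were measured, with a median log2 fold change of 0.0024, 9 above and 9 below 0, and none past 1.5-fold. The most different were Ftsj2 (MRM2), a mitochondrial rRNA ribose methyltransferase, at 6.59 RPKM in the cycloleucine library and 4.90 RPKM in the untreated library (0.42), and Rnmtl1 (MRM3), which acts on the same rRNA, at 5.52 RPKM in the cycloleucine library and 7.39 RPKM in the untreated library (-0.42). Rrnad1 (0.31) and Thumpd3 (0.29), a tRNA guanosine methyltransferase that works with Trmt112, followed. The 4 demethylases of tRNA that were measured had a median of 0.0031, with none past 1.5-fold.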

How the data were processed

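The deposited table gave read counts per gene over exons, introns and exon junctions, in all and as uniquely placed reads, per the file headers. It also gave RPKM, which the authors computed from these reads: multiplied by exon length and the total gene reads, it returned the stated reads in 43346 of 43346 features of both libraries (tolerance 0.02 reads plus a share of 0.0001). Features without an annotated transcript use gene reads and were left out of the background. Per the submitters' processing notes the reads were placed on mm10. Not given in the sources used here: aligner, counting tool, annotation release and use of strand. Columns of other libraries numbered 0.

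From the deposited RPKM a log2 fold change was computed with 0.1 added, which understates low genes. The cycloleucine share of a gene's reads was given a 95% exact (Clopper-Pearson) interval, scaled by total gene reads, or by uniquely placed gene reads for junction reads. Values from uniquely placed exon reads also use uniquely placed gene reads. Those of the intron to exon ratio are normal approximations from 4 counts with 0.5 added to each. All cover counting error only, and PCR reads carry no molecular identifiers, so they are not independent molecules. A count of 0 allows up to 3 counts, for 1 kb of exon 0.0939 RPKM in the cycloleucine and 0.111 RPKM in the untreated library. With 1 library per group no test was made, and sizes of 1.5-fold and 2-fold served as rules. Values were computed with Python 3.11.15, numpy 2.4.6, pandas 2.3.3 and scipy 1.17.1. TMM factors, used for 1 alternative scaling of the counts, came from edgeR 4.0.16 in R 4.3.3. The calculations were tested on simulated data.

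Every gene of the set is named. Of the other lists, all genes past 1.5-fold are named, and otherwise up to 4 with the largest log2 fold change in either direction. The genes, lists and alternatives were chosen with earlier results of these data known.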

Additional observations from a re-analysis of the deposited data

How the results depend on the processing

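No paired analysis was possible because there was 1 library in each group, and no library was left out for the same reason. The 2 genes at least 1.5-fold higher in the cycloleucine library became 1 with a pseudocount of 1, 1 with an RPKM minimum of 5 and 1 when the minimum had to be met in both libraries, and 0 at a threshold of 2-fold. The count at least 1.5-fold lower became 1, Trmt61b, with uniquely placed exon reads, whether scaled by uniquely placed gene reads or by total gene reads (1 gene each). With the minimum of 5, the genes above 0 were 7 of 18. Lcmt2, the gene past 1.5-fold at that minimum, met it only through the cycloleucine library (5.03 RPKM, against 2.57 RPKM untreated). Its place there thus depends on the difference itself. Apart from the 2-fold threshold (0.374% of all annotated features higher), shares of all features are not given for these settings, so the counts have no matched background. A pseudocount of 1 shrinks low values and the stricter minimums leave fewer genes. For Trmt61b the cause was not tested. The median log2 fold change kept its sign under every alternative run, between -0.11 (scaled by all exon reads) and -0.05 (uniquely placed exon reads with their own scaling, -0.08 when scaled by total gene reads). Scaling by TMM shifted every value by 0.01, by all exon reads by -0.03 and by the median feature by -0.0022. Of 248 single gene values under 8 alternatives, 2 left their counting interval, Nsun6 with a pseudocount of 1 (0.37) and Nsun2 with uniquely placed reads and their own scaling (-0.02, and -0.05, inside it, when scaled by total gene reads), and 0 called values changed sign. Lcmt2 ranged from 0.75 to 0.98 and Nsun6 from 0.37 to 0.81. The alternatives that require the minimum in both libraries, 80% uniquely placed reads or a 2-fold threshold, and the scaling of uniquely placed reads by total gene reads, were chosen after seeing the data. Depth limits the low genes most: at 75 exon reads in the cycloleucine library and 87 in the untreated library, the interval of Trmt61b ran from -0.92 to 0.01.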

Other observations

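Enzymes of other tRNA modifications, and the enzymes that cut tRNA precursors, gave values beside the methyltransferases. Of 35 measured genes listed for other tRNA modifications, the median log2 fold change was 0.01. In 2 of them the cycloleucine library was lower by at least 1.5-fold, against 1.87% of all annotated features. Trit1, which isopentenylates an adenosine beside the anticodon, had 5.44 RPKM in the cycloleucine library and 8.44 RPKM in the untreated library (-0.62). Junction reads of Trit1, 111 in the cycloleucine library and 102 in the untreated library, gave -0.08 (-0.48 to 0.32). That interval includes 0 and excludes the exon value. Qtrtd1, the noncatalytic subunit of the queuine transferase, had 2.10 RPKM in the cycloleucine library and 3.23 RPKM in the untreated library (-0.60). Its junction reads, 31 in the cycloleucine library and 74 in the untreated library, gave -1.46 (-2.11 to -0.83).

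Among 16 measured pseudouridine synthases the median was -0.02, and 2 were at least 1.5-fold lower, against the same 1.87%. Rpusd3, of mitochondria, had 4.50 RPKM in the cycloleucine library and 6.87 RPKM in the untreated library (-0.60). Pus3, which acts on the anticodon stem and loop, had 1.27 RPKM in the cycloleucine library and 2.13 RPKM in the untreated library (-0.70), with 15% of its exon reads uniquely placed. Of 19 measured genes of tRNA processing and turnover, the median was -0.02, with 1 at least 1.5-fold higher and 1 lower, against 2.16% and 1.87%. Pop7, a subunit of RNase P, had 4.28 RPKM in the cycloleucine library and 2.56 RPKM in the untreated library (0.72), with 31.4% of its exon reads uniquely placed. Elac1, the short form of RNase Z, had 0.71 RPKM in the cycloleucine library and 1.45 RPKM in the untreated library (-0.95). Elac1 was measured only through the untreated library, so its place in this list depends on the difference itself. No replicate stands behind any of these values.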
